A study of Mus musculus with 12 samples.

Results

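Malat1, Neat1, Kcnq1ot1, Meg3, Gas5 and Snhg11 are noncoding RNAs that are made and largely kept in the nucleus, or whose introns are processed there, and they were followed here through the isolation and culture of mouse hepatocytes. These 6 genes of the 32285 in the deposited matrices were chosen by name and not by a measured value, but with earlier results of these data known. Each was counted in 53467 nuclei as unique molecular identifiers (UMIs), which count a captured RNA molecule once, and spliced, unspliced and ambiguous UMIs were added.

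Each of 8 male wild-type mice gave 3 samples: perfused liver tissue (Liver, L), cells in suspension directly after collagenase digestion of the same liver (Cell Suspension, CS), and hepatocytes after 24 hours on collagen (Primary Hepatocytes, PH), 24 samples in all. The mice were young adults on chow, of the strain C57BL/6NTac in the methods and C57BL6J in the labels. Tissue was cut from 1 lobe after the blood had been flushed out. PH were plated on collagen in serum, kept in a medium with dexamethasone and insulin and lifted with trypsin, so that culture, medium, lifting and the choice of cells that attach cannot be told apart. Nuclei of 4 samples at a time were marked with hashtag antibodies and sequenced together in 6 pools, and only 2 of the pools held both L and PH.

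Malat1 gathers in nuclear speckles, bodies rich in splicing factors, and Neat1 is the RNA scaffold of paraspeckles. Kcnq1ot1 and Meg3 are imprinted, which means that 1 parental copy is read: Kcnq1ot1 is made from the paternal copy of the Kcnq1 domain, where it holds neighbouring genes silent in early development, and Meg3 from the maternal copy of the Dlk1-Dio3 domain. Gas5 and Snhg11 carry small nucleolar RNAs (snoRNAs) in their introns, and spliced Gas5 is known for its breakdown during active translation and its build-up in cells that stop growing.

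On the genome build GRCm38 with the GENCODE vM21 annotation, Malat1 lies on chromosome 19 at 5795690-5802672 and Neat1 beside it at 5824708-5845478, both on the minus strand. Kcnq1ot1 lies on chromosome 7 at 143203458-143296549 on the minus strand, inside Kcnq1, a potassium channel gene at 143106362-143427042 on the plus strand. Meg3 lies on chromosome 12 at 109541001-109571726, Gas5 on chromosome 1 at 161034422-161038539 and Snhg11 on chromosome 2 at 158375638-158386145, all on the plus strand. Malat1, Neat1 and Kcnq1ot1 are 1 exonic block each in this annotation, which classes Snhg11 as protein coding and the other members as noncoding. Whether the counting used the strand is not given in the sources used here, so reads of Kcnq1ot1 and of Kcnq1 cannot be told apart with certainty.

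The sequences around the start sites of 4 members that changed in culture are shown because they differ in the short motifs they hold. Each is 300 bases of RefSeq promoter on GRCm38.p6, written 5′ to 3′ on the strand of the gene from 250 bases before to 50 after a start site, and capitals mark TGACGTCA (the cAMP response element), CCAAT and TATATA. These motifs, as well as TATAAA and CTTTGAT, were searched on both strands. Gas5 and Meg3 have 2 RefSeq windows each, of which the windows holding a motif are given.
Gas5, chr1:161034916-161035215, plus strand: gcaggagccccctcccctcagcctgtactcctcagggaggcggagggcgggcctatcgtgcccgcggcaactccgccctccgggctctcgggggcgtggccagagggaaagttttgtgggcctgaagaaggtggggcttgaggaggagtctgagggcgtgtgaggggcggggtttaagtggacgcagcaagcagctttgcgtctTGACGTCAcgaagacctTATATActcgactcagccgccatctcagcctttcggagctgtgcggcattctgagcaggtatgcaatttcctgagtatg
Kcnq1ot1, chr7:143296498-143296797, minus strand: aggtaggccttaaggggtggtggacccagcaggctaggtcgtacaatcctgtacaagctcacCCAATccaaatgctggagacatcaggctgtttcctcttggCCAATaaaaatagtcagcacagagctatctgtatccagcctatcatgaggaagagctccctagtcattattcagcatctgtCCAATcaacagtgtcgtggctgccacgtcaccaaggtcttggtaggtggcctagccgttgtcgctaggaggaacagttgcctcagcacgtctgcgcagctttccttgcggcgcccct
Meg3, chr12:109540746-109541045, plus strand: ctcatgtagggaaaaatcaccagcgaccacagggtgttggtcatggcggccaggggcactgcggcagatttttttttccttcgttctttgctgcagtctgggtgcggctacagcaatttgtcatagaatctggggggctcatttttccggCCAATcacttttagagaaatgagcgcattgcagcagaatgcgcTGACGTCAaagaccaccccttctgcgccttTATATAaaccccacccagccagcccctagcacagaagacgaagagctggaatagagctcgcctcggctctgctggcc
Snhg11, chr2:158375463-158375762, plus strand: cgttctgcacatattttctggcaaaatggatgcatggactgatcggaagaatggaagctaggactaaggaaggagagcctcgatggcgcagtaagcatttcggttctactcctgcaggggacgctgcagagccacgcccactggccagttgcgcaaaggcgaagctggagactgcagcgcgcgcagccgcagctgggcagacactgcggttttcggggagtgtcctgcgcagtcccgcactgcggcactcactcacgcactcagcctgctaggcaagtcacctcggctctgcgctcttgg

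The Gas5 window held TGACGTCA 46 bases and TATATA 29 bases before the start. The Meg3 window held the same 2 motifs at 57 and 27 bases before the start, with CCAAT at 100 bases and with TATAAA overlapping TATATA. Kcnq1ot1 held CCAAT 3 times, at 188, 148 and 67 bases before the start, and no searched motif lay in the Snhg11 or Malat1 window. Of 32851 RefSeq promoters of 300 bases, 1.79% hold TGACGTCA, 37.4% CCAAT, 13.6% TATAAA, 5.67% TATATA and 3.73% CTTTGAT. These matches are a description of the letters.

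Hepatocyte nuclei numbered 15166 in L, 13339 in CS and 16283 in PH, with between 2104087 and 29023569 UMIs per sample. They followed the authors' names, and the clusters named only as cultured cells were divided by marker lists, with hepatocytes as the default. The 10 hepatocyte markers (Alb, Apob and others) summed to a median of 13554 CPM (the UMIs of a gene or list, scaled to the same fixed total of UMIs in each sample) in L and 3955 CPM in PH, and none was at 0. Of 53128 barcodes, 337 occurred in more than 1 pool and were kept apart by pool. CPM of all UMIs and CPM scaled by the TMM method (a factor per sample that centres the bulk of genes) differ, and the factors were 0.80 to 1.00 in L, 0.74 to 0.92 in CS and 1.24 to 1.57 in PH. Without these factors the median log2 change of all genes was 0.66 in place of 0.10 between L and PH and 0.71 in place of 0.02 between CS and PH, and the share of called genes that were higher was 75.7% in place of 51.0% and 80.2% in place of 53.4%. From L to CS this share was 19.9% without the factors, 36.5% with them and 47.8% with relative log expression factors (RLE). Levels below are CPM of all UMIs unless called scaled, and tests use the scaled values.

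The 6 RNAs together held 3.55% to 4.48% of the UMIs of hepatocyte nuclei in L, 4.31% to 6.12% in CS and 5.03% to 6.77% in PH. Malat1 alone made up 2.64% to 3.39% in L, whereas Meg3 held a median of 4.93 CPM, so that in hepatocytes the name of an abundant nuclear RNA does not hold for Meg3. UMIs were not divided by length, and levels are compared between samples and cell types, not between genes.

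After 24 hours of culture, hepatocyte nuclei held more Kcnq1ot1 and Gas5 and less Snhg11 and Meg3 than those of the tissue, while Malat1 and Neat1 did not pass the test. Thus 4 of the 6 passed, 2 in each direction, where 53.7% of all 26778 genes tested passed (27.4% higher, 26.3% lower), so the count itself is near the background. For Kcnq1ot1, Gas5 and Snhg11 no PH sample overlapped with an L or CS sample, while L and CS overlapped. The share of all genes that separate in this way was not counted, so this is a description.

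Kcnq1ot1 had a lowest, median and highest value of 202, 230 and 301 CPM in L, 148, 216 and 242 CPM in CS and 739, 869 and 1116 CPM in PH. Each of the 8 PH samples lay above each L and CS sample, whereas L and CS overlapped. The log2 change was 1.33 from L to PH (SE 0.15, adjusted p = 2.7e-09) and 1.44 from CS to PH (SE 0.15, adjusted p = 7.2e-10) by the quasi-likelihood test of edgeR, with p-values adjusted by Benjamini-Hochberg over all genes, as in all tests below. From L to CS it was -0.11 (SE 0.14, adjusted p = 0.67). Kcnq1, its host gene on the other strand, was measured at 2.03 CPM in L (286 UMIs) and 6.54 CPM in PH (757 UMIs) and rose by 1.08 (SE 0.20, adjusted p = 2.8e-05).

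Gas5 spanned 21.96 to 44.80 CPM in L with a median of 32.4, 28.4 to 47.5 in CS with a median of 35.5, and 133 to 187 in PH with a median of 161. No PH sample overlapped with another type. The log2 change was 1.73 from L to PH (SE 0.14, adjusted p = 8.4e-12) and 1.39 from CS to PH (SE 0.14, adjusted p = 1.1e-09), and 0.35 from L to CS (SE 0.14, adjusted p = 0.083).

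Snhg11 moved the other way. It spanned 46.4 to 83.8 CPM in L (median 62.2), 44.4 to 65.7 in CS (median 56.0) and 13.7 to 41.9 in PH (median 27.5), again with no PH sample overlapping L or CS. It fell by 1.72 on the log2 scale from L to PH (SE 0.16, adjusted p = 8.2e-11) and by 1.71 from CS to PH (SE 0.16, adjusted p = 1.2e-10), and L and CS differed by -0.003 (SE 0.15, adjusted p = 0.99). Gas5 and Snhg11, both snoRNA hosts, thus moved in opposite directions in the same nuclei.

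Meg3 was scarce in hepatocyte nuclei, with 818 UMIs in L, 246 in CS and 236 in PH. Its lowest, median and highest levels were 2.09, 4.93 and 11.9 CPM in L, 0.70, 3.91 and 5.20 CPM in CS and 0.41, 1.30 and 6.70 CPM in PH. Of the PH samples 6 lay below every L sample, and PH3 and PH6 lay within the L range. Meg3 fell by 2.02 on the log2 scale from L to PH (SE 0.45, adjusted p = 2.9e-04) and by 1.36 from CS to PH (SE 0.48, adjusted p = 0.019). The second of these calls was lost without scaling factors (-0.67, adjusted p = 0.25) and without mouse 1 or mouse 4.

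Malat1 was higher in CS than in L in all 8 mice. Its levels were 26431, 30585 and 33859 CPM in L, 31365, 43092 and 51669 CPM in CS and 40674, 50929 and 58776 CPM in PH as lowest, median and highest. All PH samples lay above all L samples on this scale, but the scaled values of PH, 25838 to 43997 CPM, overlapped those of L, 28232 to 40834 CPM. From L to CS it rose by a log2 change of 0.60 (SE 0.16, adjusted p = 0.0072), the only member called where 22.3% of genes were called (8.15% higher, 14.2% lower). This call held in 21 of 24 alternatives, among them that without scaling factors (0.48). It was lost, among others, with spliced UMIs alone (0.20, adjusted p = 0.55) and with the mean CPM over nuclei in limma (0.54, adjusted p = 0.28). From L to PH the change was 0.16 (SE 0.16, adjusted p = 0.44) with scaling and 0.72 (adjusted p = 2.9e-06) without, where the median gene moved by 0.66. From CS to PH it was -0.44 (SE 0.16, adjusted p = 0.025) with scaling and 0.24 (adjusted p = 0.070) without, so no direction can be given for Malat1 in culture.

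Neat1 had levels of 6206, 7550 and 13156 CPM in L, 6957, 9980 and 12744 CPM in CS and 6596, 8994 and 12176 CPM in PH, and the 3 ranges overlapped. From L to PH the log2 change was -0.40 (SE 0.19, adjusted p = 0.074) and from L to CS 0.40 (SE 0.19, adjusted p = 0.14). From CS to PH it fell by 0.80 (SE 0.19, adjusted p = 6.5e-04) with scaling and was at -0.10 (adjusted p = 0.62) without it. All 6 members passed the test from CS to PH with scaling, where 50.4% of genes passed.

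**Figure D1:**
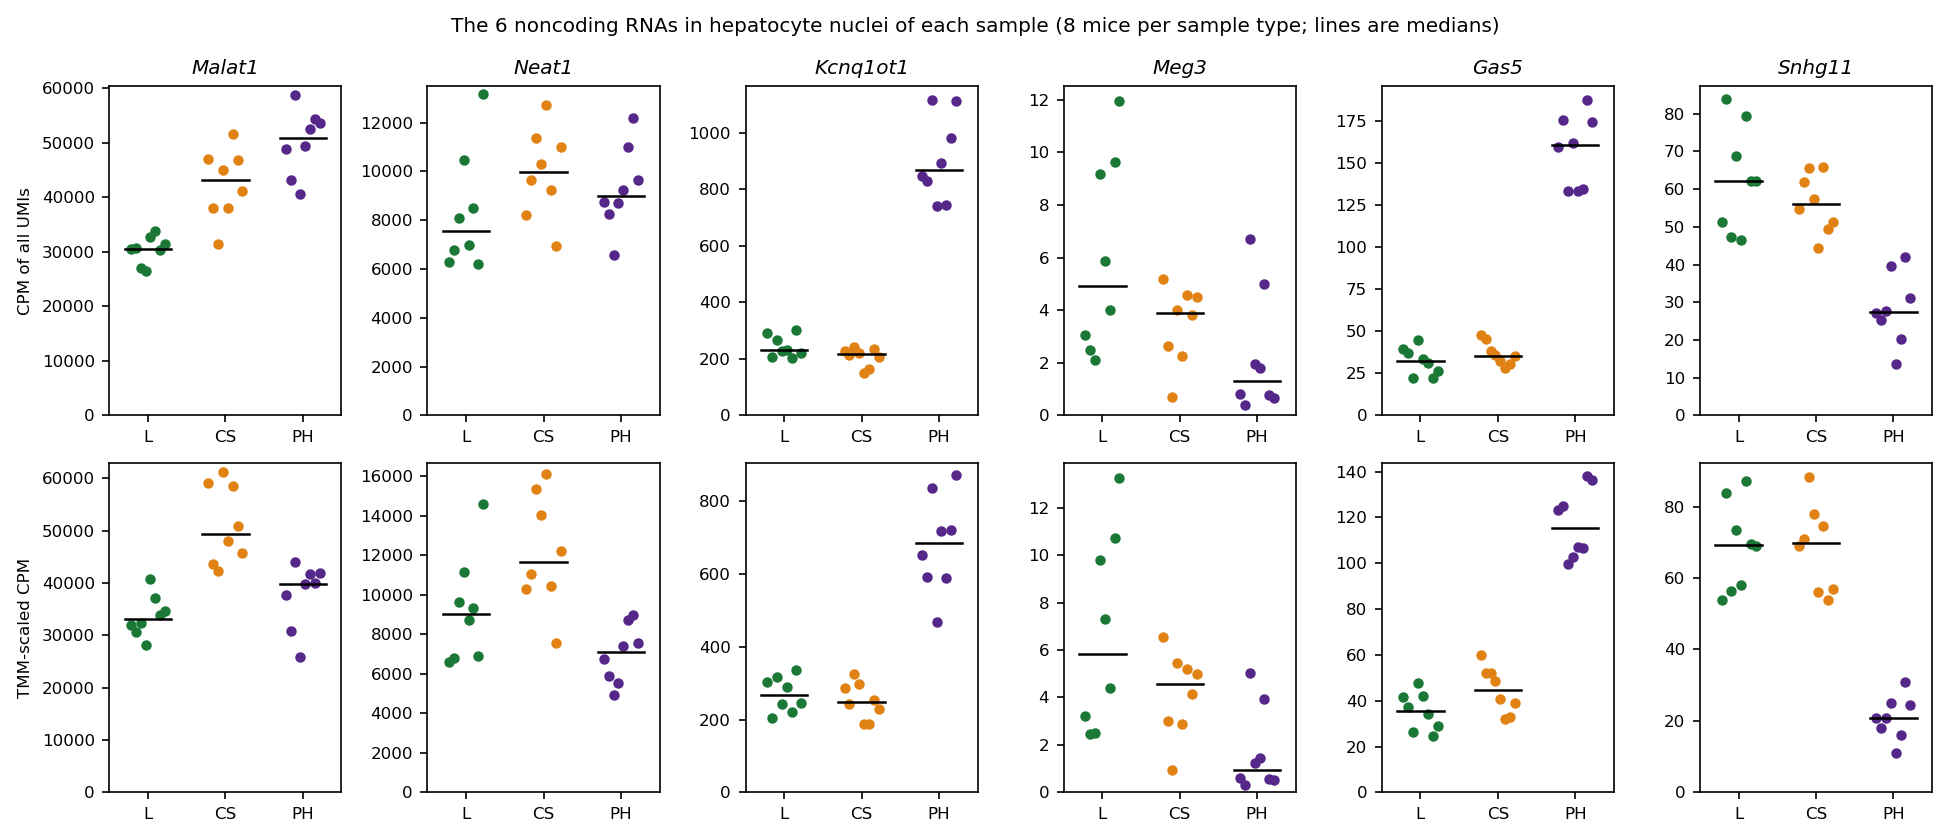
Levels of the 6 RNAs in hepatocyte nuclei of each sample, as CPM of all UMIs (top) and TMM-scaled CPM (bottom), with 1 point per mouse and lines at the medians of Liver (L), Cell Suspension (CS) and Primary Hepatocytes (PH). The 8 PH points of Kcnq1ot1 and Gas5 lie above and those of Snhg11 below all other points in both rows. Those of Malat1 all lie above L in the top row and overlap with L in the bottom row.

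Within the 2 pools that held both types, scaled Kcnq1ot1 of PH was 1.92 and 2.95 times that of L, Gas5 2.15 and 2.81 times, Snhg11 0.34 and 0.39 times and Meg3 0.13 and 0.38 times. The same ratios were 0.92 and 1.05 for Malat1 and 0.49 and 0.72 for Neat1. Each of these pools held 1 L sample and 1 or 2 PH samples, so the values stand without a test.

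The summed markers of other cells were at more CPM in the hepatocyte sums of PH than of L, the 12 endothelial markers at a median of 51.8 in L and 137 in PH and the 10 stellate markers at 49.0 (28.7 to 58.1) and 186 CPM (72.7 to 639), with no marker of either list at 0. With scaling, 6 of the 12 endothelial markers rose and 3 fell (median log2 change 0.29), and 1 of the 10 stellate markers rose and none fell (median -0.25). The part of such RNA in the changes was not tested. The nuclei that the authors did not name cultured cells also stood apart. In the 73 such hepatocyte nuclei of PH, Kcnq1ot1 was at 281 CPM (182 UMIs) against 902 CPM in the 16210 named cultured. Gas5 was at 58.6 (38 UMIs) against 157 CPM, Snhg11 at 77.1 (50 UMIs) against 26.9 CPM and Meg3 at 58.6 (38 UMIs) against 1.72 CPM. The 750 CS nuclei in cultured clusters held 257 CPM of Kcnq1ot1 (311 UMIs) against 206 CPM in the other CS nuclei and 64.5 CPM of Gas5 (78 UMIs) against 36.9 CPM. The 168 L nuclei in cultured clusters went the other way for Kcnq1ot1, at 147 CPM (35 UMIs) against 249 CPM, with Gas5 at 42.0 CPM (10 UMIs) against 31.2 CPM. Of these nuclei, 705 of CS and 166 of L lay in 1 cluster with a median of 1608 UMIs. The median depths of the nuclei in cultured clusters were 860 UMIs in CS and 1027.5 in L. The other hepatocyte nuclei were at 3644 and 7695.5 UMIs. The clusters were made from the same counts, so the values are a description.

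As shares of nuclei, after each nucleus was thinned to 1000 UMIs, which left out 587 nuclei of L, 932 of CS and 293 of PH, Kcnq1ot1 was found in a median of 20.7% of hepatocyte nuclei of L, 17.6% of CS and 51.9% of PH. Gas5 was found in 3.55%, 3.53% and 14.4%, and Snhg11 in 5.71%, 5.51% and 2.33%. Endothelial nuclei of L, thinned alike, held Snhg11 in 0.44%, and no cell type here lacks Kcnq1ot1 or Gas5, so that their shares have no background. Barcodes of 10 to 100 UMIs outside the nuclei, a measure of free RNA, held 209 and 121 CPM of Kcnq1ot1 (48 and 11 UMIs) in the 2 pools without PH and 272 to 735 CPM in the 4 with PH, and Gas5 was at 13.05 and 32.92 CPM (3 UMIs each) and 20.7 to 147 CPM. The part of free RNA in the shares and levels was not tested. Without thinning, at median depths of 7573, 3459 and 6080 UMIs per nucleus, the shares were 68.6%, 44.7% and 90.1% for Kcnq1ot1, 23.9%, 16.1% and 59.9% for Gas5 and 27.5%, 16.2% and 9.32% for Snhg11.

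Over the 24 hepatocyte sums, the genes whose log2(CPM + 1) followed Kcnq1ot1 most closely were Sptlc2 (Pearson r = 0.98), Zc3hav1 and Chmp4c (both 0.97), those that followed Gas5 were Tnfrsf12a (0.98), Sprr1a and Creb5 (both 0.97), and those that followed Snhg11 were Naaladl2 (0.96), Ece1 and Agmo (both 0.95). For Malat1 they were Trip11, Ctnnd2 and Nktr, between 0.86 and 0.89, for Neat1 1600020E01Rik, Slmap and Ercc6, between 0.82 and 0.83, and for Meg3 Gm12718, Pex6 and Smc3, between 0.77 and 0.79. The sums share libraries and the split into 3 sample types, and these values are a description across 8616 genes of at least 10 CPM.

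Each of the 6 RNAs held a smaller unspliced share than all genes pooled, which for those of 1 exonic block follows from the annotation. Of all UMIs of hepatocyte nuclei, 74.5% were unspliced in L, 66.7% in CS and 64.3% in PH, as is usual in nuclei. Malat1, Neat1 and Kcnq1ot1 were listed with 0 unspliced UMIs, of 13018500, 2904973 and 153305 UMIs over the 3 sample types (for Kcnq1ot1 a count of 0 allows up to 0.00196%). Each is 1 exonic block when the exons of all its transcripts are merged, so that no base is intronic in every transcript. Kcnq1ot1 was spliced in 100% by this definition, Malat1 spliced in 61.0% and ambiguous in 39.0%, and Neat1 spliced in 92.1%. Gas5 was unspliced in 0.72% and Snhg11 in 0.53%, and Meg3 in 14.4% of its 1300 UMIs. Over all annotated transcripts, 3760 of the 4118 bases of Gas5 and 8521 of the 10508 bases of Snhg11 are exonic in this annotation, and the part of this in the low unspliced shares was not tested.

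Whether unspliced and spliced RNA moved by different amounts can be tested only for Gas5, Meg3 and Snhg11. Snhg11 was called from L to PH, with the unspliced change higher by 1.55 on the log2 scale (SE 0.42, adjusted p = 0.0031), and from CS to PH (1.80, SE 0.53, adjusted p = 0.0087), where 17.7% and 14.8% of genes were called. This rests on 82 unspliced UMIs, 41 in L, 11 in CS and 30 in PH, and the value from CS to PH was 1.32 without mouse 1 (adjusted p = 0.11) and 3.09 without mouse 4. For Gas5 the difference from L to PH was -0.16 (SE 0.42, adjusted p = 0.97) and for Meg3 0.01 (adjusted p = 1).

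Endothelial nuclei, which line the liver sinusoids in tissue and were also found in culture, numbered 2474 in L, 1152 in CS and 1809 in PH, with at least 29 per sample. Gas5 was higher there too after culture, but at a smaller share of the hepatocyte level than the hepatocyte markers in PH, and Kcnq1ot1 was not called. Gas5, Malat1 and Neat1 passed the test from L to PH, all higher, where 33.8% of 18279 genes passed (15.4% higher, 18.4% lower).

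Gas5 spanned 13.6 to 35.4 CPM in endothelial nuclei of L (median 23.4) and 50.8 to 118 CPM in those of PH (median 70.2), without overlap. The log2 change was 1.51 (SE 0.22, adjusted p = 2.4e-07), and 0.80 from CS to PH (SE 0.24, adjusted p = 0.012), where 20% of genes passed. The latter call was lost with the pool as a covariate (0.67, adjusted p = 0.054) and without mouse 6 (0.65, adjusted p = 0.052). Kcnq1ot1 was at 304 to 425 CPM in L (median 341) and 295 to 498 CPM in PH (median 413), with a log2 change of -0.02 (SE 0.13, adjusted p = 0.91). Neat1, at medians of 1403 CPM in L and 2567 CPM in PH, rose by 0.61 (SE 0.22, adjusted p = 0.027), and Malat1, at 25392 and 39422 CPM, rose by 0.45 (SE 0.16, adjusted p = 0.025). These 2 calls held in 10 and 12 of 16 alternatives. That of Neat1 was lost without the PH nuclei not named cultured (0.49, adjusted p = 0.076), without these and the L and CS nuclei named cultured (0.43, adjusted p = 0.13) and without mouse 1, 4 or 6, that of Malat1 without mouse 1, 3 or 6 (adjusted p of 0.055 to 0.081), and both with the pool as a covariate. Meg3 held only 11, 7 and 5 UMIs in L, CS and PH. Snhg11, with 42, 21 and 39 UMIs, was at 1.16 from L to PH (SE 0.50, adjusted p = 0.068) and was called in 7 of 15 alternatives, but 18 of the 39 UMIs came from PH3, and without mouse 3 it was at 0.33 (adjusted p = 0.69). No member passed from L to CS by edgeR without a block, where 3.9% of genes passed. At an unadjusted p under 0.05 there were 2, Gas5 (0.71, SE 0.24, adjusted p = 0.097) and Neat1 (0.60, SE 0.22, adjusted p = 0.13). With the mouse as a block Neat1 was called (0.62, adjusted p = 0.048), as it was without mouse 8 (0.80, adjusted p = 0.025), and DESeq2 called Gas5 (0.81, adjusted p = 0.035) and Malat1 (0.33, adjusted p = 0.0056).

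The change in hepatocytes was compared with that in endothelial nuclei in 1 fit. From L to PH, Kcnq1ot1 changed by 1.51 more in hepatocytes on the log2 scale (SE 0.17, adjusted p = 8.9e-13), Neat1 by -0.91 (SE 0.16, adjusted p = 2.5e-06) and Snhg11 by -2.76 (SE 0.43, adjusted p = 5.3e-08), where 25.1% of genes passed. For Gas5 this difference was 0.36 (SE 0.22, adjusted p = 0.26), for Malat1 -0.15 (SE 0.13, adjusted p = 0.47) and for Meg3 -1.72 (SE 0.93, adjusted p = 0.19). Hepatocyte and endothelial Kcnq1ot1 thus moved apart in culture, whereas a difference for Gas5 was not called, which does not show that the 2 types changed alike. From CS to PH 18.7% of genes passed and 4 members did, and from L to CS 2.46% passed and Malat1 did (0.47, SE 0.13, adjusted p = 0.026), a call that held in 5 of 10 alternatives and was lost without scaling factors, with RLE and without mouse 1, 5 or 6. The part of hepatocyte RNA in endothelial nuclei, gauged by the 10 hepatocyte markers, was at a median of 3017 CPM in L and 3034 CPM in PH, which is 22.1% of the level in hepatocyte nuclei of L and 66.1% (46.5% to 156%) of that in PH. In PH endothelial Gas5 was at a median of 48.1%, Kcnq1ot1 at 43.8% and Neat1 at 28.9% of the hepatocyte level. Malat1 was at 77.4% and Snhg11 at 38.5%. No expression of their own is therefore read from endothelial Gas5, Kcnq1ot1, Neat1 and Snhg11 in PH. This gauge is loose in PH, because the markers of hepatocyte nuclei fell from a median of 13554 CPM in L to 3955 CPM. In L endothelial Gas5 was at a median of 69.5% and Kcnq1ot1 at 147% of the hepatocyte level, above the markers. The part of hepatocyte RNA in endothelial nuclei was not tested. The 12 endothelial markers there were at 14646 CPM in L and 7077 CPM in PH, and none of either list was at 0.

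Nuclei of stellate cells, which store vitamin A in the sinusoid wall, numbered only 192 in PH and were not tested against L. Kcnq1ot1 was at 186 to 334 CPM in L (median 216, 820 UMIs) and 303 to 778 CPM in PH (median 573, 342 UMIs), where 7 of 8 PH samples lay above all L samples. Gas5 was at a median of 25.1 CPM in L (93 UMIs) and 82.3 CPM in PH (50 UMIs). The hepatocyte markers in these nuclei were at a median of 24.9% of their level in hepatocyte nuclei in L and 56.6% in PH, where stellate Gas5 was at 50.0% and Kcnq1ot1 at 65.7% (40.7% to 69.7%) of the hepatocyte level. The Gas5 share lay below that of the markers, so that no expression of its own is read there, and the part of hepatocyte RNA in stellate Kcnq1ot1, whose median lay above it with overlapping ranges, was not tested. From L to CS edgeR called no member in stellate nuclei, where 3.19% of genes were called and 2 members had an unadjusted p under 0.05, or in those of Kupffer cells, the resident macrophages, where 1.3% were called and no member had one. The 2 members in stellate nuclei were Kcnq1ot1 at -0.66 (SE 0.22, adjusted p = 0.093) and Meg3 at -0.95 (SE 0.41, adjusted p = 0.21).

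**Figure D2:**
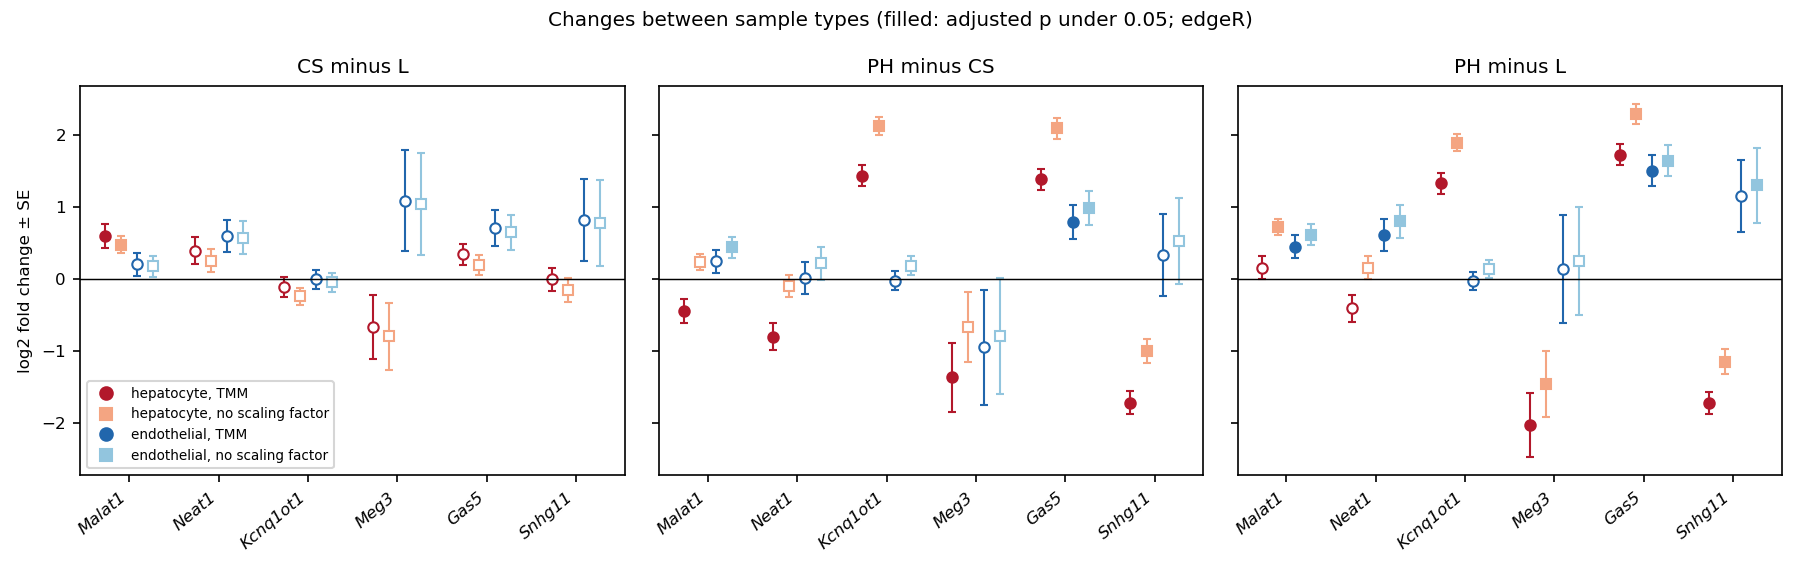
Log2 fold changes of the 6 RNAs between sample types (panels) in hepatocyte (red) and endothelial nuclei (blue), with TMM scaling (circles) and without a scaling factor (squares). Bars are standard errors from edgeR, and filled points had an adjusted p under 0.05. Kcnq1ot1 rises with culture in hepatocytes on both scales and not in endothelial nuclei, and Gas5 is higher in both. In PH, endothelial Gas5 was at a smaller share of the hepatocyte level than the hepatocyte markers, so no rise of endothelial expression is read. Malat1 and Neat1 in hepatocytes change sign or call with the scaling.

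In sums over all nuclei, the change of a level and of the mix of cell types cannot be told apart, and fewer cells of a type and less RNA per cell look alike. There Meg3 fell from L to CS by 1.33 on the log2 scale (SE 0.39, adjusted p = 0.014) and from L to PH by 2.58 (SE 0.40, adjusted p = 2.1e-06), where 55.7% of genes were called, and Malat1 and Gas5 rose from L to CS by 0.66 (SE 0.17, adjusted p = 0.0041) and 0.46 (SE 0.15, adjusted p = 0.025). No other member was called from L to CS in all nuclei, where 20.6% of genes were called, but Neat1 (0.55, SE 0.20, adjusted p = 0.055) was called in 7 of 16 alternatives, among them the mouse as a block (0.57, adjusted p = 0.047). With the pool as a covariate, the calls of Meg3 (-1.09, adjusted p = 0.072) and Gas5 (0.14, adjusted p = 0.46) from L to CS were lost, and that of Gas5 also without scaling factors (0.24, adjusted p = 0.24) and without mouse 1, 2, 3 or 8 (0.36 to 0.44). The biliary cluster with most Meg3, held 650 of the 1676 Meg3 UMIs of L and numbered 157 nuclei in L, 1 in CS and 0 in PH. Stellate nuclei held 185 of these UMIs and numbered 880 in L and 139 in the 7 CS samples with at least 10 of them.

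Each of the 6 RNAs was called in at least 1 other cell type of the tissue against hepatocytes, and the share of all genes called so was not counted. Kcnq1ot1 was called only in leukocytes, where its sign turned without scaling. Neat1 and Snhg11 were highest in hepatocytes, Meg3 in nuclei named biliary and in stellate nuclei, and Malat1, Kcnq1ot1 and Gas5 varied less. The test compared each type with hepatocytes over the 8 L samples with the sample as a block, and called 46.4% of 24537 genes in endothelial, 41.2% in Kupffer, 39.6% in stellate, 32.6% in leukocyte and 30.7% in biliary nuclei.

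Neat1 had a median of 7550 CPM in hepatocytes, 2655 in leukocytes, 1614 in biliary, 1403 in endothelial, 1383 in Kupffer and 1232 in stellate nuclei. The lowest hepatocyte sample, at 6206 CPM, lay above the highest of any other type, 4204 CPM, while the other types overlapped. The log2 differences from hepatocytes were -2.54 (SE 0.19) to -3.10 (SE 0.19), with adjusted p between 7.5e-28 and 4.2e-23. Snhg11 had a median of 62.2 CPM in hepatocytes and between 5.47 and 14.6 CPM in the other types, with log2 differences of -2.58 to -3.81. In endothelial nuclei the hepatocyte markers reached 17.0% to 30.9% of their level in hepatocyte nuclei (median 22.1%), Neat1 13.1% to 25.5% (median 18.4%) and Snhg11 1.53% to 13.1% (median 10.6%). Both medians lay below that of the markers, so that no expression of their own is read from the endothelial levels of Neat1 and Snhg11. The markers were at medians of 36.5% in leukocyte, 28.3% in Kupffer and 24.9% in stellate nuclei. Neat1 was at 30.7%, 17.9% and 16.9% there and Snhg11 at 22.6%, 13.7% and 15.7%, so none is read there either. In biliary nuclei Neat1 was at 21.3% and Snhg11 at 12.9%, against markers at 18.9%, with overlapping ranges.

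Meg3 had a median of 746 CPM in biliary nuclei (303 to 1791), 54.4 CPM in stellate nuclei (38.2 to 64.8) and 4.93 CPM in hepatocytes (2.09 to 11.9), 3 ranges that did not overlap. It was higher than in hepatocytes by 6.43 in biliary (SE 0.25, adjusted p = 2.1e-44) and 2.95 in stellate nuclei (SE 0.26, adjusted p = 1.4e-18), and differed by -2.40 in endothelial nuclei (SE 0.49, adjusted p = 1.5e-05), which held 11 UMIs. The biliary value came from 1 of 2 clusters that the authors named biliary epithelial cells. That cluster held 650 Meg3 UMIs in its 157 L nuclei (1236 CPM), and the other held 0 in 63 L nuclei, which allows up to 17.0 CPM. In the first cluster 5 of the 9 biliary markers were at least 5 times their mean over the other clusters and 2 of the 10 stellate markers, and in the second 9 of 9 and 0 of 10. Without the first cluster no Meg3 UMI was left in biliary nuclei of L, and the fitted difference of -7.34 (adjusted p = 0.14) is then no bound.

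Kcnq1ot1 was ordered from biliary (median 473 CPM) through endothelial (341), Kupffer (338), leukocyte (280) and hepatocyte (230) to stellate nuclei (216). Each neighbour in this order overlapped with the next. The scaled biliary difference from hepatocytes of 0.15 (SE 0.16, adjusted p = 0.57) was not called, but was in 2 of 12 alternatives. Of the 2 biliary clusters, the one without Meg3 held 673 CPM of Kcnq1ot1 over all samples and 346 CPM of Kcnq1 in L (61 UMIs), and the other 400 and 3.804 CPM. Whether the counting kept the strands of Kcnq1 and Kcnq1ot1 apart was not tested. The hepatocyte samples, 202 to 301 CPM, lay below all endothelial samples, 304 to 425 CPM, but the scaled difference of 0.28 (SE 0.13, adjusted p = 0.074) was not called and that without scaling was (0.52, adjusted p = 4.1e-04). Leukocytes were called for Kcnq1ot1 with scaling (-0.55, SE 0.16, adjusted p = 0.0031), and their difference was 0.26 without it. Stellate nuclei were not (-0.31, SE 0.14, adjusted p = 0.075), but were called in 8 of 12 alternatives. Malat1 was ordered from stellate (37450 CPM) and biliary (36582) through hepatocyte (30585), Kupffer (29126) and endothelial (25392) to leukocyte nuclei (23387), and neighbours overlapped. Its differences from hepatocytes ranged from 0.07 (SE 0.11, adjusted p = 0.65) in stellate to -1.17 (SE 0.11, adjusted p = 6.1e-16) in leukocyte nuclei. Over 12 alternatives the leukocyte one lay between -1.44 and -0.35 and was called in all. That of Kupffer nuclei, -0.59 (SE 0.11, adjusted p = 4.2e-06), lay between -0.80 and -0.09 and was called in 10. The biliary one of -0.61 (SE 0.11, adjusted p = 3.7e-06) was 0.20 without scaling. Gas5 medians lay between 14.7 and 32.4 CPM with overlapping ranges, and the calls of lower Gas5 in endothelial (-0.69, SE 0.17, adjusted p = 2.0e-04), leukocyte (-1.33, SE 0.31, adjusted p = 1.7e-04) and stellate nuclei (-0.49, SE 0.20, adjusted p = 0.036) rest on 196, 21 and 93 UMIs. The leukocyte call was lost without scaling factors (-0.55, adjusted p = 0.26). The stellate call held in 8 of 12 alternatives and was lost without scaling factors (-0.26, adjusted p = 0.35), with RLE (-0.22, adjusted p = 0.45) and without mouse 2 or 3 (-0.36 and -0.31).

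**Figure D3:**
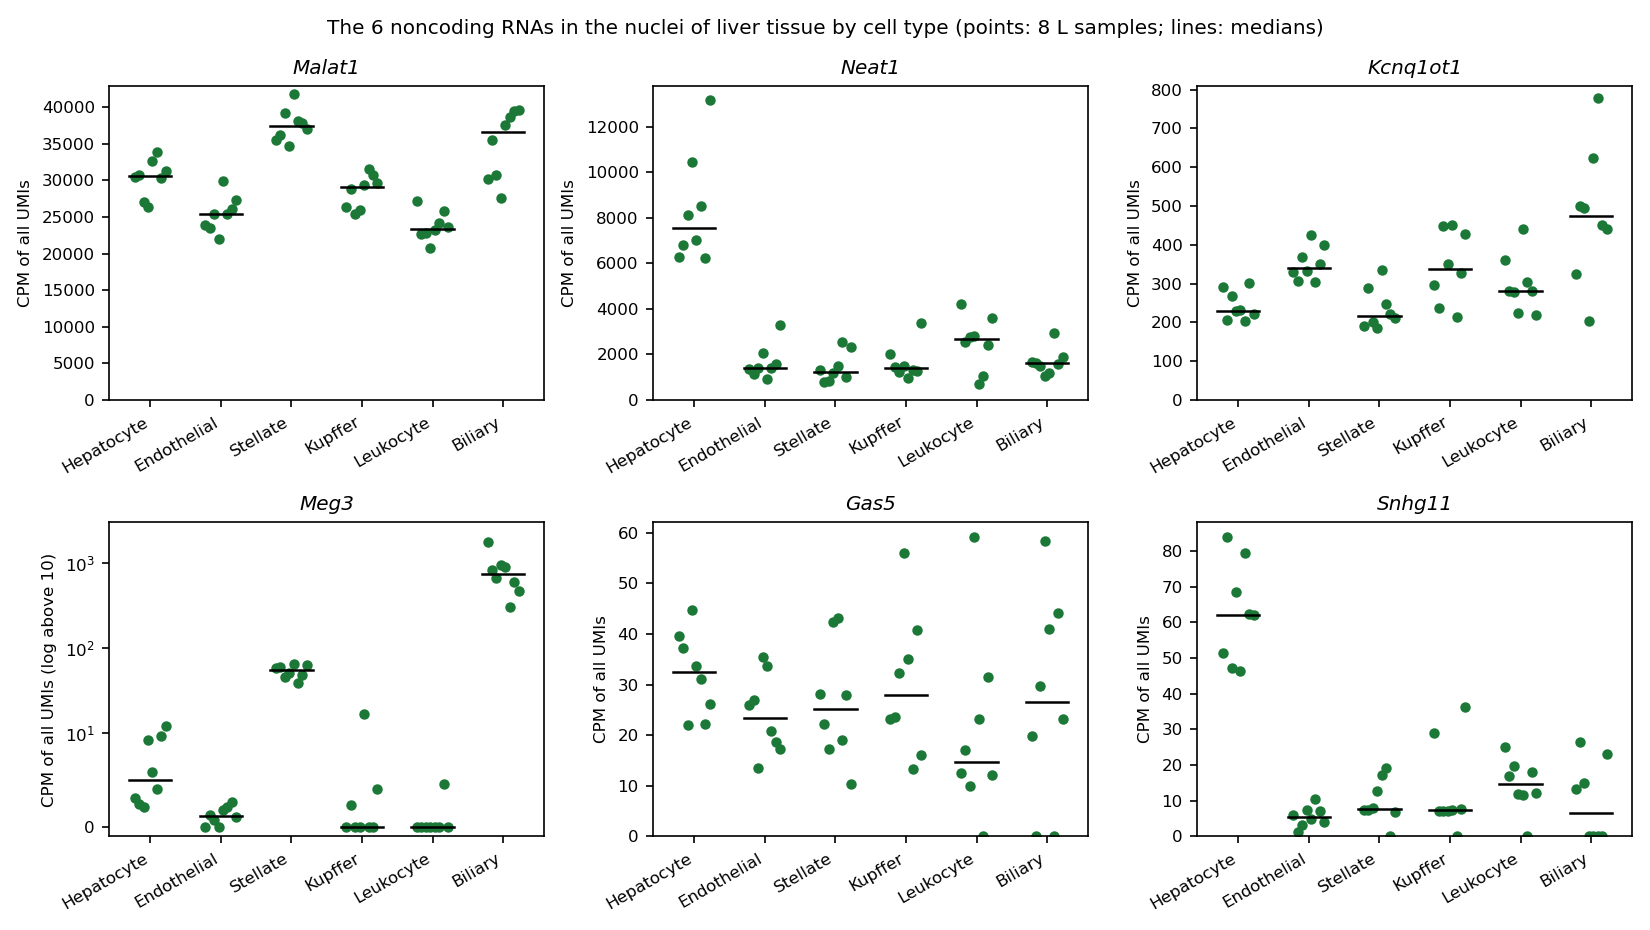
Levels of the 6 RNAs by cell type in the tissue, as CPM of all UMIs, with 1 point per L sample and lines at the medians (the Meg3 axis is logarithmic above 10 CPM). Neat1 and Snhg11 are highest in hepatocytes, and Meg3 steps up from hepatocytes over stellate nuclei to those named biliary. In the latter Meg3 lay only in the cluster with fewer raised biliary markers.

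Hepatocytes near the central vein and near the portal vein of the lobule do different work, and L nuclei were divided by whether 10 pericentral genes (Glul, Cyp2e1 and others) or 10 periportal genes (Pck1, Cyp2f2 and others) held more of their UMIs. This gave 4094 pericentral and 10778 periportal nuclei, with 294 ties left out, at median depths of 10284.5 and 6979.5 UMIs. Over the 8 mice, 5 of the 6 RNAs differed between the 2 sides, where 18.6% of 23429 genes did (8.48% higher on the pericentral side, 10.1% lower). Meg3 and Snhg11 were higher on the pericentral side, and Neat1, Kcnq1ot1 and Malat1 on the periportal side. Each of these 5 calls held under all 10 alternatives tried.

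Meg3 was at 3.78, 10.8 and 85.5 CPM on the pericentral side (lowest, median, highest) and at 0.20, 0.70 and 1.56 CPM on the periportal side. The 2 sides did not overlap and Meg3 was higher in 8 of 8 mice, with 741 against 75 UMIs. The log2 difference was 4.57 (SE 0.26, adjusted p = 9.2e-15). Snhg11 was at 60.02, 111 and 137 CPM against 23.5, 45.8 and 69.8 CPM, higher in 8 of 8 mice with slightly overlapping ranges (1.21, SE 0.07, adjusted p = 1.2e-14).

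Neat1 was lower on the pericentral side in 8 of 8 mice, at medians of 5316 against 9066 CPM (-0.59, SE 0.05, adjusted p = 2.6e-11). Kcnq1ot1 was lower in 8 of 8 mice as well, at 182 against 263 CPM (-0.55, SE 0.05, adjusted p = 4.8e-10), and so was Malat1, at 28566 against 31204 CPM, by a smaller amount (-0.13, SE 0.03, adjusted p = 0.0021). Gas5 was at 28.2 against 31.9 CPM and was higher on the pericentral side in 2 of 8 mice (-0.16, SE 0.07, adjusted p = 0.16). In shares of nuclei thinned to 1000 UMIs, Snhg11 was found in a median of 10.7% of pericentral and 4.65% of periportal nuclei.

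**Figure D4:**
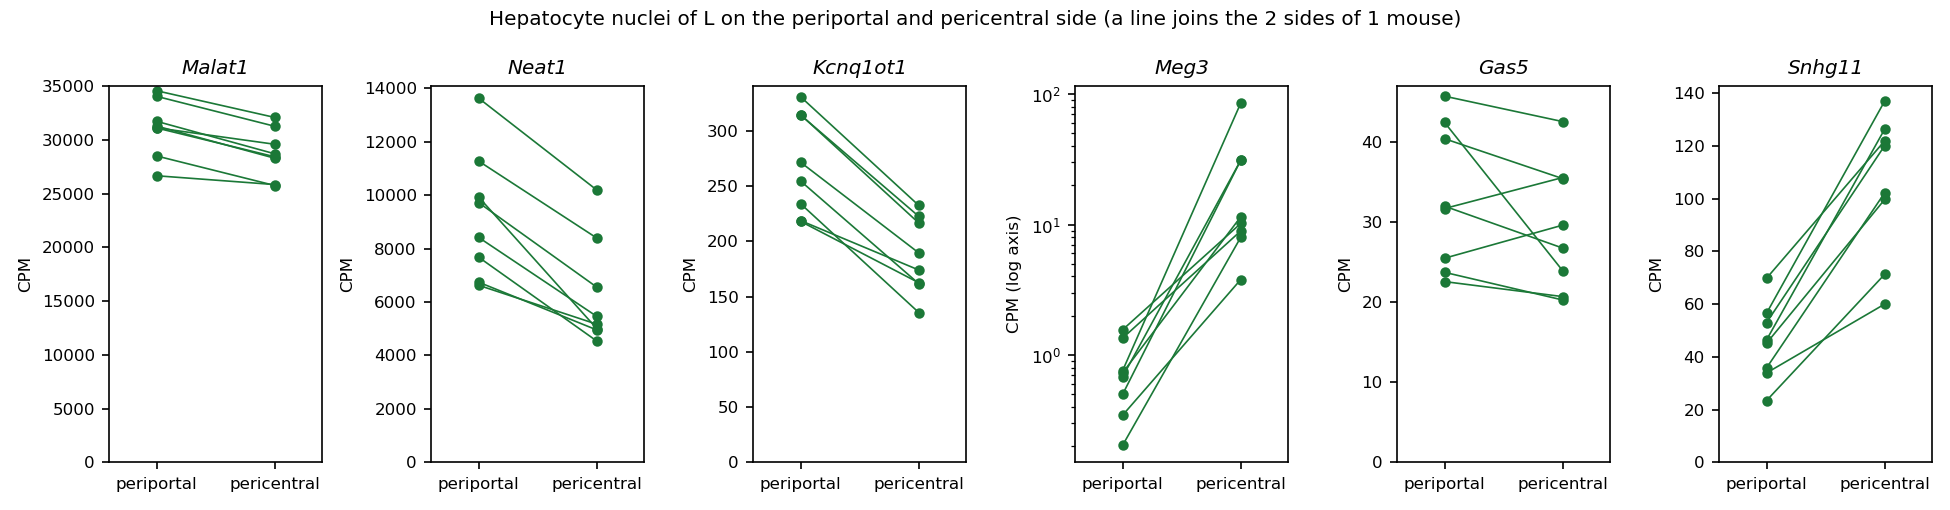
Levels of the 6 RNAs in periportal and pericentral hepatocyte nuclei of the 8 L samples in CPM, with a line joining both sides of a mouse (the Meg3 axis is logarithmic). Lines of Meg3 and Snhg11 rise in all mice, and lines of Neat1, Kcnq1ot1 and Malat1 fall in all mice.

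The Meg3 of hepatocytes sat in very few nuclei. A threshold of 3 UMIs, chosen after the values were seen, picked 44 of the 15166 hepatocyte nuclei of L, and these held 658 of the 818 Meg3 UMIs (80.4%). They occurred in all 8 L samples, 1 to 12 per sample, and 40 lay on the pericentral side. Of the 44, 39 were in 2 of the authors' hepatocyte clusters, and together they held 2387 CPM of Glul, the glutamine synthetase of the cells next to the central vein, against 204 CPM in all hepatocyte nuclei of L (Glul is among the genes of the split). They also held 279 of the 372 UMIs of Rian and 49 of the 200 UMIs of Mirg, noncoding RNAs read from the same domain as Meg3. Their hepatocyte markers were at 9331 CPM, against 13696 CPM in all hepatocyte nuclei of L, their stellate markers at 106 CPM, against 15778 CPM in stellate nuclei, and their biliary markers at 228 CPM, against 9380 CPM in the cluster with Meg3.

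The same threshold picked 16 nuclei of CS with 146 of 246 UMIs and 10 nuclei of PH with 144 of 236 UMIs, 60 of them in a single nucleus of PH3. The 10 PH nuclei came from 4 of 8 samples. The 10 pericentral genes themselves summed to 1702 to 2627 CPM in hepatocytes of L and 95.1 to 146 CPM in those of PH, beside the fall of Meg3 and Snhg11, and the 10 periportal genes to medians of 5013 and 536 CPM, beside the rise of Kcnq1ot1. Their part in the changes of these RNAs was not tested.

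Among genes related by role, the other snoRNA hosts followed Gas5 and not Snhg11. Of 15 measured in hepatocyte nuclei, 12 rose from L to PH and none fell (median log2 change 1.64, against 0.10 for all genes, of which 27.4% rose and 26.3% fell). Among those of at least 10 CPM the 4 largest changes were those of Zfas1 (3.20, SE 0.22, adjusted p = 8.9e-14), Snhg15 (2.92, SE 0.18, adjusted p = 4.8e-15), Snhg1 (2.49, SE 0.16, adjusted p = 3.0e-14) and Snhg8 (1.86, SE 0.26, adjusted p = 4.4e-07). In endothelial nuclei 9 of 14 rose and none fell (median 1.45, against -0.01 for all genes, of which 15.4% rose), beside hepatocyte markers that went there from 22.1% to 66.1% of their hepatocyte level, whose part was not tested. Of 19 other named long noncoding RNAs, 7 rose and 4 fell in hepatocytes (median 0.12), a share near the 53.7% of all genes called, with Pvt1, a neighbour of Myc, at 3.02 (SE 0.17), Mir17hg, a microRNA host, at 2.07 (SE 0.17), Jpx, from the X inactivation centre, at -1.9996 (SE 0.12) and Sox2ot at 1.56 (SE 0.17).

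From L to PH, where 27.4% of all genes rose and 26.3% fell, the balance of genes for proteins of the 2 nuclear bodies turned with the scaling. Of 28 paraspeckle protein genes 6 rose and 14 fell (median -0.26), among them Akap8l (-1.47, SE 0.11), Dazap1 (-1.40, SE 0.09), the cold-inducible Cirbp (-1.08, SE 0.12) and Hnrnph3 (-0.94, SE 0.10), but without scaling factors 15 rose and 5 fell. Of 33 splicing factor genes of the speckles 5 rose and 8 fell (median 0.03), with Srsf4 at -1.35 (SE 0.14), Srrm2, a core speckle protein, at -0.95 (SE 0.12), Clk4 at -0.87 (SE 0.10) and Srsf3 at 0.79 (SE 0.09), and without scaling factors 26 rose and 3 fell. From L to CS, where 8.15% of all genes rose and 14.2% fell, 14 of the speckle genes rose and 4 fell, and 12 paraspeckle genes fell and none rose, against 11 and 10, and 17 and none, without scaling factors.

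Of 15 measured genes of the Kcnq1 domain, 8 rose and 3 fell in hepatocytes from L to PH (median 0.98), where 27.4% of all genes rose and 26.3% fell. Those that rose were Tnfrsf23 (5.97, SE 0.39), Tnfrsf22 (3.82, SE 0.55), Trpm5 (3.50, SE 0.31), Tssc4 (1.84, SE 0.18), Tnfrsf26 (1.59, SE 0.29), Kcnq1 (1.08, SE 0.20), Cars (1.07, SE 0.18) and Cd81 (0.88, SE 0.16), and those that fell were Dhcr7, of cholesterol synthesis (-2.01, SE 0.14), Slc22a18 (-1.86, SE 0.16) and Nap1l4 (-0.30, SE 0.09). Cdkn1c, a cell cycle inhibitor that Kcnq1ot1 is known to hold silent in the embryo, was at 0.29 (SE 0.49, adjusted p = 0.66) and Phlda2 at 0.98 (SE 0.49, adjusted p = 0.094).

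In the Dlk1-Dio3 domain Rian fell with Meg3 in hepatocytes (-1.79, SE 0.41, adjusted p = 4.5e-04), as did Rtl1 (-1.01, SE 0.42, adjusted p = 0.042). Mirg rose (0.84, SE 0.22, adjusted p = 0.0014), and so did Begain, Dio3os and Dio3, at 1.29 (SE 0.49), 1.15 (SE 0.43) and 4.62 (SE 0.66), while Dlk1 was at 0.23 (SE 0.53, adjusted p = 0.75). These 4 higher and 2 lower calls among 7 genes, where 27.4% and 26.3% of all genes were called, became 2 to 4 and 1 or 2 without 1 mouse each (2 higher without mouse 6, 1 lower without mouse 2, 4, 5, 6, 7 or 8). On the pericentral side of L, Rian (3.97) and Rtl1 (1.53) were higher together with Meg3, and Mirg was at 0.89 (adjusted p = 0.055).

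**Figure D5:**
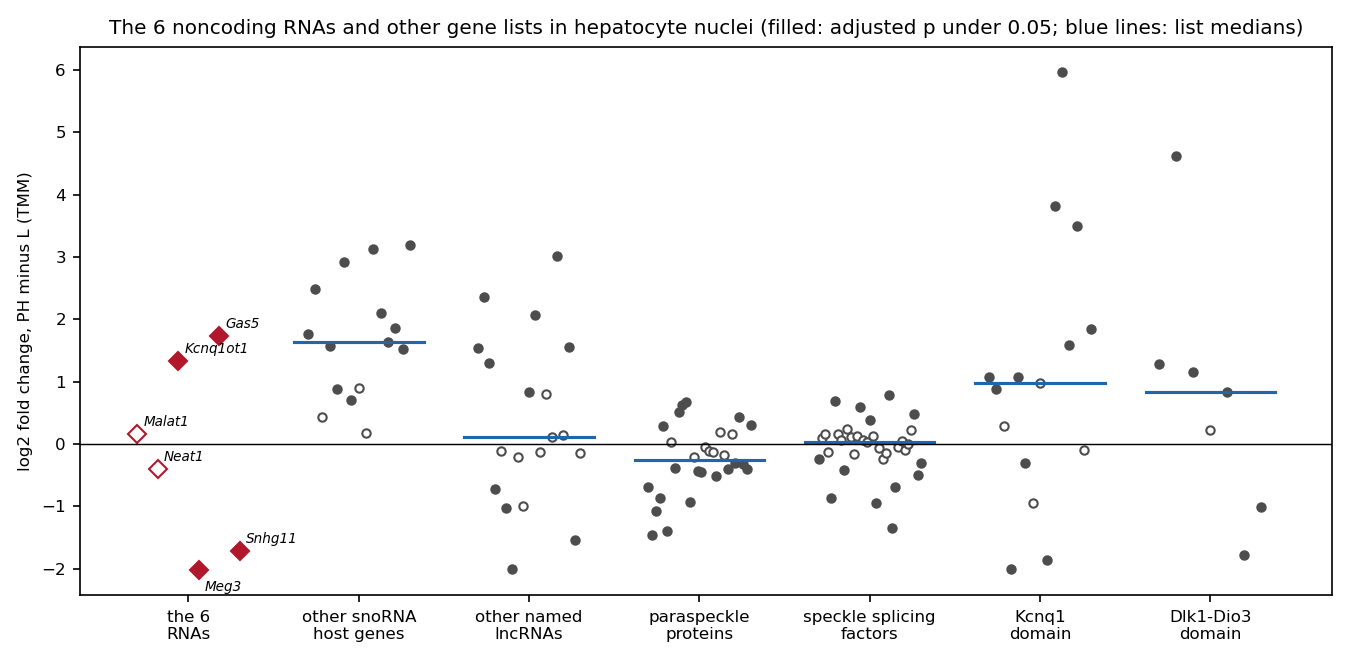
Log2 fold changes from L to PH in hepatocyte nuclei with TMM scaling for the 6 RNAs (red) and related gene lists (grey), where filled points had an adjusted p under 0.05 and blue lines are medians of a list. The other snoRNA hosts lie above 0 like Gas5 and unlike Snhg11, and the 2 imprinted domains and the proteins of nuclear bodies spread to both sides.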

How the data were processed

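Single-nucleus RNA-seq libraries (10x 3′, hashtag antibodies) were made from 24 samples of 8 mice. Per the labels and the study's methods, the authors ran bcl2fastq 2.19.0, Salmon and alevin against a GRCm38 transcriptome that separates spliced and unspliced RNA, and deposited UMI counts for every barcode. Their table of 53467 nuclei gives the sample, sample type, cluster and cell type after removal of doublets, and was used as deposited. The annotation version and the use of strand are not given in the sources used here. The labels give a sample as CD2, which was read as CS2.

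The UMIs of the 3 splicing states were pooled into sums per sample and cell type with Python 3.11.15 and at least 10 nuclei. Nuclei named only as cultured cells took the type of their cluster's markers. Sums were tested in R 4.3.3 with edgeR 4.0.16 (quasi-likelihood, TMM factors, genes of at least 10 counts), with Benjamini-Hochberg adjusted p under 0.05 called. All 3 sample types shared a fit. Cell types and zones were compared with the mouse as a block. DESeq2 1.42.0 and limma 3.58.1 served as alternatives. The tests were tried on simulated data, where all of 200 genes changed 4-fold were recovered in hepatocytes from L to PH. In the fits of hepatocyte against endothelial changes and of endothelial nuclei against hepatocytes 94% were recovered, the latter with 33 false calls. No scarce gene was changed there, as many genes rose as fell, and no mouse effect was drawn. The recovery thus does not cover Meg3 in hepatocytes or calls that turn with the scaling.

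The same number marks the same mouse. Over 3859 genes, same-mouse deviations correlated at 0.406 to 0.900 between L and CS and at -0.0847 to 0.150 between L and PH. The members and gene lists were chosen with earlier results of these data known. The text names all members and the 3 genes most like each. From each list it names the 4 called genes of at least 10 CPM with the largest change from L to PH. The Dlk1-Dio3 domain is named in full, and of the Kcnq1 domain the called genes with Cdkn1c and Phlda2. Limits for a count of 0 use 3 counts and cover counting error only.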

Additional observations from a re-analysis of the deposited data

Results flagged for a closer look

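In 36 groups of 8 samples, 3 values stood apart from the other 7 by a gap past Dixon's critical value, as a part of the group's range, where chance gives about 1 in 20. Endothelial Kcnq1ot1 of CS3 was at 419 CPM (60 UMIs) with the next sample at 354 CPM, a gap of 0.595 of the range. Endothelial Gas5 of CS6 was at 6.11 CPM, a single UMI, with the next at 33.1 CPM, a gap of 0.606. Endothelial Snhg11 of PH3 was at 44.8 CPM (18 UMIs) with the next at 18.9 CPM, a gap of 0.578.

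The change between sample types differed between hepatocyte and endothelial nuclei in 8 cases by the edgeR test of the difference itself. From L to PH the hepatocyte change minus the endothelial one was 1.51 for Kcnq1ot1, -0.91 for Neat1 and -2.76 for Snhg11 on the log2 scale. From CS to PH it was 1.56 for Kcnq1ot1 (adjusted p = 1.4e-12), -0.61 for Malat1 (adjusted p = 9.7e-05), -0.79 for Neat1 (adjusted p = 7.0e-05) and -2.004 for Snhg11 (adjusted p = 4.7e-04), where 18.7% of genes were called. From L to CS it was 0.47 for Malat1 (0.465, SE 0.13, adjusted p = 0.026), where 2.46% of genes were called. The Malat1 and Neat1 differences from CS to PH were at -0.20 and -0.38 without scaling factors and were then not called. The Malat1 difference from L to CS was not called without scaling factors (0.30), with RLE (0.39) or without mouse 1, 5 or 6. Endothelial Neat1 and Snhg11 were at medians of 18.4% and 10.6% of the hepatocyte level in L and 28.9% and 38.5% in PH. The hepatocyte markers were at 22.1% and 66.1%, so no endothelial change of their own is read for these RNAs. Endothelial Snhg11 rests on 42, 21 and 39 UMIs in L, CS and PH, with 18 of the 39 from PH3.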

How the results depend on the processing

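In hepatocyte nuclei 426 of 456 recomputed values of the 6 RNAs stayed called or stayed uncalled. Among these, 17 were uncalled and had the other sign. All 60 values of the pericentral comparison kept both call and direction. The calls of Gas5 and Kcnq1ot1 from L to PH held in all alternatives, and Snhg11 lost its call only with unspliced counts alone (-0.67, and -0.021 from CS to PH), where Gas5 was at 0.59 and Meg3 at -1.29 from CS to PH. Without scaling factors Malat1 turned to 0.24 from CS to PH in hepatocytes and 0.27 in all nuclei and rose to 0.72 from L to PH, and from CS to PH Meg3 was at -0.67 and Neat1 at -0.10. In limma Malat1 turned to 0.13 and Neat1 was at -0.080 from CS to PH, and Malat1 was at 0.54 from L to CS. With spliced counts alone, Malat1 was at 0.20 from L to CS and -0.31 from CS to PH, Kcnq1ot1 at -0.48 from L to CS and Neat1 at -0.63 from L to PH. With ambiguous counts added, Malat1 was at 0.34 and -0.30 and Neat1 at -0.54. DESeq2, RLE and an expression filter each called Gas5 from L to CS (0.43), and DESeq2 also Neat1 (0.47) and, from L to PH, Malat1 (0.26). The pool as a covariate called Neat1 from L to PH (-0.68). Leaving out 1 mouse each moved Malat1 from CS to PH between -0.51 and -0.29 (not called without mouse 1, 2 or 4), Meg3 between -1.93 and -1.08 (mouse 1 or 4) and Neat1 from L to PH between -0.51 and -0.25 (called without mouse 7).

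Among cell types, Malat1 in biliary nuclei turned to 0.091 with RLE and 0.20 without scaling, Kcnq1ot1 in leukocytes to 0.26 without scaling, and Meg3 in biliary nuclei to -7.34 without the cluster that held it. Counts of called genes moved from 712 to 334 (pool; 432 to 768 without 1 mouse each, lowest without mouse 1) in endothelial nuclei from L to CS and from 6181 to 3818 (expression filter) and 3268 (pool) from L to PH. They moved from 5983 to 3328 in hepatocytes from L to CS after thinning to the smallest sample. In stellate nuclei they moved from 431 to 226 (RLE) and 69 (at least 20 nuclei), or 209 to 426 without 1 mouse each, and in Kupffer nuclei from 180 to between 77 and 219. The cause was not tested.

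In endothelial nuclei the pool as a covariate ended the L to PH calls of Malat1 (0.45, adjusted p = 0.099) and Neat1 (0.63, adjusted p = 0.099) and the CS to PH call of Gas5 (0.67, adjusted p = 0.054). With the mouse as a replicate block, Neat1 was called from L to CS in all nuclei (0.57, adjusted p = 0.047) and in endothelial nuclei (0.62, adjusted p = 0.048), and no other call of the 6 RNAs changed. Meg3 in endothelial, Kupffer and leukocyte nuclei and in stellate nuclei of CS and PH rests on few UMIs, as does Snhg11 outside hepatocytes.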
